A study of Arabidopsis thaliana with 18 samples.

Results

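The 9 genes that maintain DNA methylation in Arabidopsis thaliana were read out of mRNA-seq counts of leaves that had or had not been exposed to excess light (EL). The choice was by locus identifier and known function, but was made with earlier results of these data known. The genes are 9 of the 33052 nuclear loci other than rRNA in the count tables. They are MET1 (AT5G49160), VIM1 (AT1G57820), VIM3 (AT5G39550), CMT3 (AT1G69770), CMT2 (AT4G19020), SUVH4 (AT5G13960), SUVH5 (AT2G35160), SUVH6 (AT2G22740) and DDM1 (AT5G66750). All plants were of the Col-0 ecotype and were grown for 3 weeks in a 12 h photoperiod at 100 to 150 µmol photons m-2 s-1, and true leaves 4 to 9 were harvested. Naïve wild-type (WT) plants (N) had no EL, and primed WT plants (P) had a week of recurring EL, given as 1 h at 1000 µmol photons m-2 s-1 on 3 occasions a day. Naïve-triggered (N+T) and primed-triggered (P+T) WT plants received a further EL treatment, the triggering stress. Each of these 4 groups had 3 mRNA-seq libraries from independent plants. Unstressed leaves from 3 WT plants and 3 plants of the T-DNA insertion mutant strs2 were used for MethylC-seq, which reports methylation at single cytosines. STRS2 is an RNA helicase that has been linked to RNA-directed DNA methylation. The hour of harvest of each group is not given in the sources used here, so time of day and triggering cannot be told apart.

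Plants methylate cytosine in CG, CHG and CHH contexts, where H is any base but G, and each context is copied after replication by its own enzymes. MET1 restores CG methylation on the new strand, guided by VIM proteins that bind hemimethylated CG sites. CMT3 and CMT2 methylate non-CG cytosines where the neighbouring histone H3 carries a methyl mark laid down by SUVH4, SUVH5 and SUVH6, which in turn bind methylated DNA. DDM1 is a chromatin remodeller that opens heterochromatin to these enzymes. Because maintenance follows the replication fork, several of these genes are known for higher expression in dividing cells.

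Total counts per library ran from 3665503 to 33081543. The 2 libraries that the study omitted, N-r3 and N+T-r3, were left out of the main fit and are given beside it. N-r3 stood apart for all 9 genes, with levels between 4.87% and 29.4% of the mean of N-r1 and N-r2. The deficit went with locus length: in the shortest quintile of the 17986 loci tested, the median difference of N-r3 from N-r1 and N-r2 was 0.40 in log2 (CPM + 1), and in the longest quintile it was -1.48. The 9 genes span 3421 to 6838 bp, and 7 of them fell in the longest quintile. N+T-r3 was the shallowest library but showed no such trend, with medians between -0.10 and -0.02 over the quintiles. Leaf mesophyll markers summed to between 13340 and 30930 CPM over the 12 libraries, and the shoot meristem markers STM and WUS had 0 counts in every one.

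**Figure D1:**
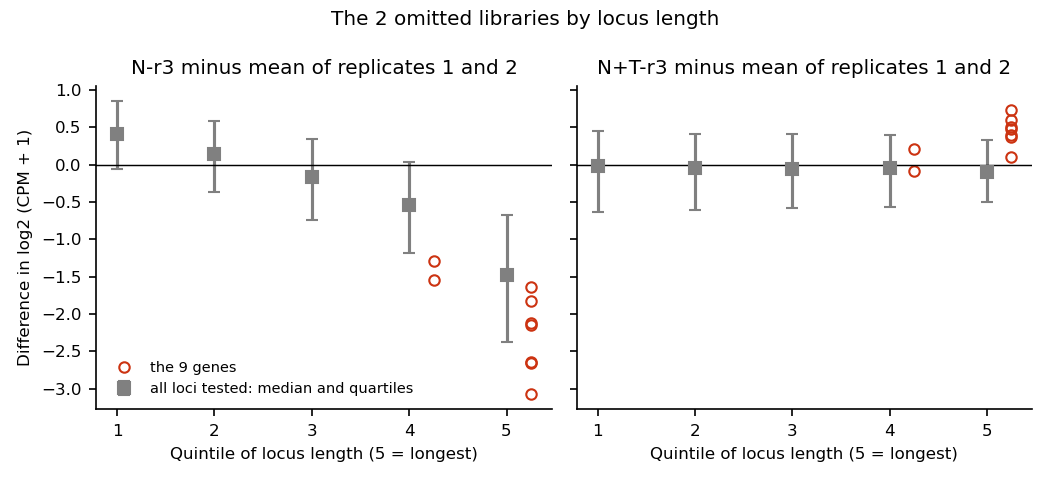
Difference in log2 (CPM + 1) between each omitted library and the mean of replicates 1 and 2 of its group, by quintile of locus length; grey squares and bars are the median and quartiles of all loci tested and red circles the 9 genes. In N-r3 the medians fall from 0.40 to -1.48 with length and the 9 genes lie below 0, whereas in N+T-r3 the medians stay near 0.

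VIM1 had the clearest response to triggering (TAIR10, chromosome 1, 21413981 to 21418115, minus strand, 10 exons). It was present at 12.0, 10.3 and 0.946 CPM in N-r1 to N-r3, and at 33.1, 27.8 and 40.4 CPM in N+T-r1 to N+T-r3. Primed plants had 6.59, 5.84 and 4.75 CPM before the triggering stress and 30.1, 26.2 and 19.2 CPM after it. All 6 triggered libraries, the omitted N+T-r3 included, therefore lay above all 6 untriggered ones. The log2 fold change was 1.63 ± 0.23 (SE, adjusted p = 0.00832, edgeR quasi-likelihood test with Benjamini-Hochberg adjustment) in naïve plants (N+T against N) and 2.15 ± 0.19 (adjusted p = 0.00493) in primed plants (P+T against P). Of all loci tested, 7.74% were called higher in naïve plants and 2.05% in primed plants. The difference between both responses, the interaction, was 0.53 ± 0.29 and did not pass (adjusted p = 0.389). The call in P+T against P was kept without any 1 of the 10 libraries (adjusted p at most 0.0184), and that in naïve plants was lost without N-r1 or N-r2 (adjusted p at most 0.0949). With N-r3 in the fit both calls were lost, at adjusted p = 0.168 in primed and 0.0894 in naïve plants with 11 libraries and 0.155 and 0.0668 with all 12, at log2 fold changes of 2.15 and of 2.13 and 2.31. With only N+T-r3 added both were kept (adjusted p = 0.00394 and 0.00945).

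VIM3, the close relative of VIM1, went the other way in naïve plants (chromosome 5, 15837178 to 15840678, minus strand, 9 exons). It had 5.15, 5.25 and 1.53 CPM in N, 2.22, 1.36 and 2.18 CPM in N+T, 3.25, 2.29 and 3.42 CPM in P and 2.26, 1.78 and 2.24 CPM in P+T. It fell by 1.40 ± 0.34 on the log2 scale in N+T against N (adjusted p = 0.0335, edgeR), where 7.43% of all loci were called lower. In P+T against P, where 2.44% of all loci were called lower, the log2 fold change was -0.49 ± 0.27 and was not called (adjusted p = 0.330, edgeR). The call in naïve plants was lost without any 1 of N-r1, N-r2, N+T-r1, N+T-r2, P+T-r2 or P+T-r3, with adjusted p up to 0.168, and N-r3 lay within the range of N+T. Within single libraries, the count of VIM1 was 2.33 and 1.97 times that of VIM3 in N-r1 and N-r2, 0.619 times in N-r3 and 1.39 to 2.55 times in P. After triggering it was 14.9, 20.5 and 18.5 times in the N+T libraries and 8.59 to 14.7 times in P+T. This ratio does not depend on library size. The counts of VIM3 were small, from 8 in N+T-r3 to 147 in N-r2. Of its 64-base words, 7.79% are also found elsewhere, in VIM2 and VIM4, so that uniquely mapped reads from these stretches are missing from its counts, whereas no word of the other 8 genes is repeated. VIM2 was at 0 to 6.02 CPM and VIM4 at 0 to 0.523 CPM, and neither passed the filter on low counts.

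**Figure D2:**
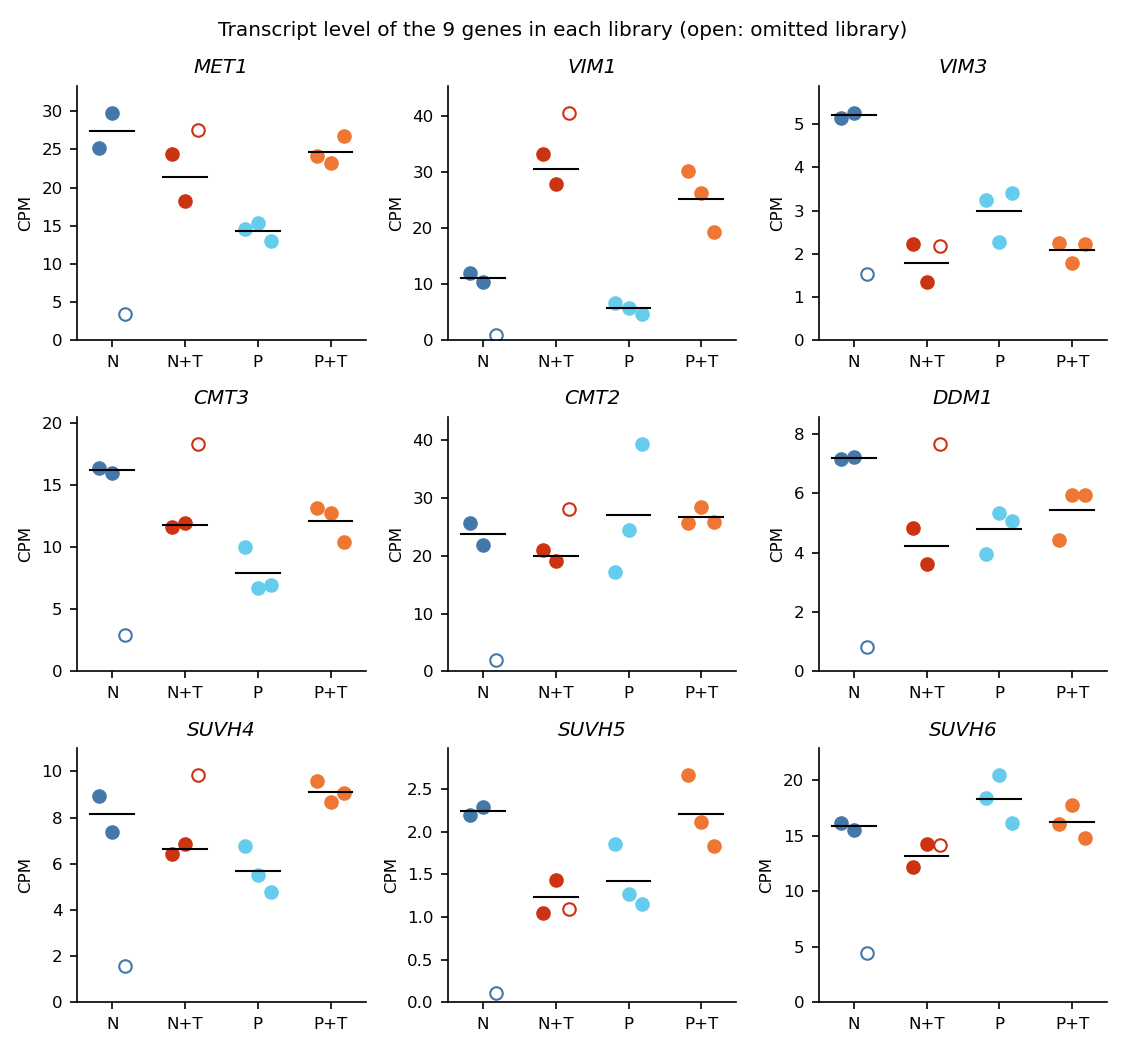
CPM of the 9 genes in each of the 12 libraries (points, in replicate order; open circles are N-r3 and N+T-r3), with the mean of the libraries in the main fit as a line. VIM1 lies above 19 CPM in all 6 triggered libraries and at or below 12.0 CPM in all 6 untriggered ones, and N-r3 is the lowest library for 8 of the 9 genes.

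MET1, the CG methyltransferase (chromosome 5, 19932114 to 19938470, plus strand, 13 exons), was at 25.2, 29.7 and 3.49 CPM in N and at 24.5, 18.3 and 27.6 CPM in N+T. It was at 14.5, 15.4 and 13.0 CPM in P and at 24.1, 23.3 and 26.7 CPM in P+T. The level of P+T thus lay where N-r1, N-r2 and N+T lay, and P stood below them. MET1 was called higher in P+T against P, by 0.80 ± 0.18 (adjusted p = 0.0424, edgeR), but not changed in N+T against N, at -0.19 ± 0.22 (adjusted p = 0.571).

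CMT3 and SUVH4, the methyltransferase for CHG and the histone methyltransferase that it works with, had a like pattern. CMT3 (chromosome 1, 26248118 to 26253687, minus strand, 21 exons) was at 16.4, 16.0 and 2.95 CPM in N, 11.7, 12.0 and 18.3 CPM in N+T, 10.05, 6.75 and 6.93 CPM in P and 13.1, 12.8 and 10.5 CPM in P+T. SUVH4 (chromosome 5, 4501362 to 4506250, plus strand, 15 exons) was at 8.92, 7.39 and 1.56 CPM in N, 6.41, 6.86 and 9.83 CPM in N+T, 6.78, 5.52 and 4.78 CPM in P and 9.56, 8.66 and 9.07 CPM in P+T. For both genes, as for MET1 and VIM1, all P+T libraries lay above all P libraries in CPM, as for 9.01% of all loci. The log2 fold change in P+T against P was 0.65 ± 0.14 for CMT3 (adjusted p = 0.0424, edgeR) and 0.70 ± 0.15 for SUVH4 (adjusted p = 0.0375). In N+T against N it was -0.28 ± 0.18 for CMT3 (adjusted p = 0.279) and -0.12 ± 0.19 for SUVH4 (adjusted p = 0.667). The calls on MET1, CMT3 and SUVH4 lay close to the threshold. Without any 1 of N-r1, N-r2, P-r2, P-r3, P+T-r1, P+T-r2 or P+T-r3 none of the 3 was called, CMT3 was also lost without N+T-r2, and the adjusted p reached 0.165, 0.157 and 0.153. With N-r3 and N+T-r3 kept, they were 0.693, 0.740 and 0.677, although neither library belongs to this contrast, because all groups share 1 estimate of the spread.

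CMT2, which methylates CHH sites in long transposons (chromosome 4, 10414428 to 10421265, plus strand, 24 exons), was at 25.7, 21.9 and 1.93 CPM in N, 20.9, 19.1 and 28.1 CPM in N+T, 17.3, 24.5 and 39.3 CPM in P and 25.7, 28.4 and 25.9 CPM in P+T. The 3 primed plants covered the whole range of the other groups in the main fit, and the fold change in P+T against P was -0.03 ± 0.31 on the log2 scale (adjusted p = 0.965, edgeR). SUVH6 (chromosome 2, 9662638 to 9667038, minus strand, 3 exons) was the steadiest of the 9 genes, at 15.6 to 16.2 CPM in N-r1 and N-r2, 12.2 to 14.2 in N+T, 16.1 to 20.5 in P and 14.8 to 17.8 in P+T. SUVH5 (chromosome 2, 14822774 to 14826194, plus strand, 3 exons) was the lowest, at 2.196 and 2.29 CPM in N-r1 and N-r2, 1.05 to 1.43 in N+T, 1.15 to 1.86 in P and 1.84 to 2.66 in P+T. DDM1 (chromosome 5, 26648897 to 26653191, plus strand, 16 exons) was at 7.14 and 7.21 CPM in N-r1 and N-r2, 3.63 to 7.65 in N+T, 3.94 to 5.34 in P and 4.42 to 5.95 in P+T. None of these 4 genes was called in any contrast. SUVH4 and SUVH6 overlap genes on the opposite strand (AT5G13970, and AT2G22730 with AT2G07845), which the counting by strand keeps apart.

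**Figure D3:**
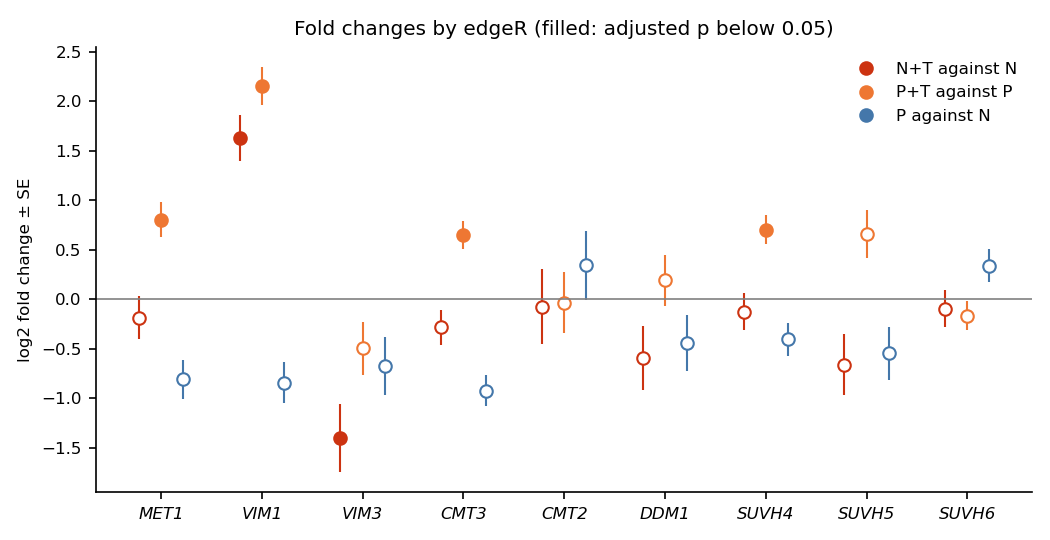
Log2 fold change ± SE (edgeR, 10 libraries) of the 9 genes for P against N and for triggering in naïve (N+T against N) and in primed plants (P+T against P); filled points have an adjusted p below 0.05. VIM1 is highest in both responses to triggering (1.63 and 2.15), VIM3 lowest in N+T against N (-1.40), and 7 of the 9 genes are below 0 in P against N with no call.

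Levels were compared between genes as CPM per kb of exon (RPKM), although the counts cover introns too. In N, SUVH6 (5.95 RPKM), CMT2 (5.51), MET1 (5.43) and CMT3 (5.28) led and each overlapped the next in the order, followed by VIM1 (4.50), SUVH4 (3.19), DDM1 (2.59), VIM3 (2.30) and SUVH5 (0.671). Per kb of the whole span, MET1 led in N (4.32 CPM per kb), before SUVH6 (3.61) and CMT2 (3.48), so the order of these genes depends on the length used. After triggering VIM1 moved to the top, at 12.3 RPKM in N+T and 10.14 RPKM in P+T, with no overlap with the next gene in either group, and it was also first per kb of span in both. In P, SUVH6 (6.87 RPKM) and CMT2 (6.26 RPKM) led, and the 6 genes from MET1 (2.83 RPKM) to VIM3 (1.32 RPKM) each overlapped the next.

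Between P and N no gene was called, either among the 9 or among all loci (0%, edgeR), and 1576 loci were at an unadjusted p below 0.05. Of the 9 genes, 5 were at an unadjusted p below 0.05 and all 5 were lower in P, compared with 3.89% of all loci that were lower at this p. These were CMT3 at -0.92 ± 0.16 (adjusted p = 0.261), MET1 at -0.81 ± 0.19 (adjusted p = 0.319), VIM1 at -0.84 ± 0.21 (adjusted p = 0.319), VIM3 at -0.68 ± 0.29 (adjusted p = 0.566) and SUVH4 at -0.40 ± 0.17 (adjusted p = 0.555). For 7 of the 9 genes every P library lay below N-r1 and N-r2 in CPM, as for 16.4% of all loci, whereas N-r3 lay below every P library in all 9 genes. The median log2 fold change over the 9 genes was -0.54, beside 0.02 over all loci. DESeq2 called CMT3, MET1 and VIM1 lower (3 genes, with 342 loci called in all), and edgeR called CMT3 (adjusted p = 0.0179) once P-r1 was left out. With N-r3 and N+T-r3 in the fit the 5 values were -0.49, -0.33, -0.33, -0.32 and 0.03.

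Triggered plants did not differ by any call between P+T and N+T, for the 9 genes or for all loci (0%, edgeR, with 3595 loci and 2 of the 9 genes at an unadjusted p below 0.05; DESeq2 called 750 loci and 0 of the 9 genes). The 2 genes were SUVH5 at 0.78 ± 0.29 (adjusted p = 0.212) and SUVH4 at 0.43 ± 0.17 (adjusted p = 0.226). The interaction of triggering with priming was above 0 for 8 of the 9 genes, with a median of 0.83 beside -0.01 over all loci. None was called by edgeR, where 0.00556% of all loci were, and 4 were above 0 at an unadjusted p below 0.05, as were 7.49% of all loci. These 4 were SUVH5 at 1.32 ± 0.39 (adjusted p = 0.214), MET1 at 0.99 ± 0.28 (adjusted p = 0.204), CMT3 at 0.93 ± 0.23 (adjusted p = 0.194) and SUVH4 at 0.83 ± 0.24 (adjusted p = 0.210). DESeq2 called CMT3 alone of the 9 genes.

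Transcripts of dividing cells were read beside these values. A list of 25 replication and division genes, of which 24 were tested, summed to 437 and 443 CPM in N-r1 and N-r2, 308.7 and 309.0 CPM in the first 2 replicates of N+T, 194 to 283 CPM in P and 309 to 378 CPM in P+T. N-r3 had 94.8 CPM and N+T-r3 had 449.8 CPM. In P against N all 24 were fitted below 0 (median -0.87) with 0 called and 19 at an unadjusted p below 0.05, and in the interaction all 24 were above 0 (median 1.04) with 0 called and 17 at that p. Of all loci, 3.89% were lower in P at this p and 7.49% were above 0 in the interaction. Both contrasts hold the same P and N libraries, so these patterns are not separate observations. In P+T against P 5 were called higher, beside 2.05% of all loci. Among the 5 were the helicase subunit MCM5 (1.09 ± 0.15, adjusted p = 0.0105, edgeR), the sliding clamp PCNA1 (0.95 ± 0.14, adjusted p = 0.0117) and the ribonucleotide reductase subunit TSO2 (1.24 ± 0.21, adjusted p = 0.0183). In N+T against N 6 were called lower, beside 7.43% of all loci. Among the 6 were MCM7, histone gene HTR2 and the licensing factor CDT1A, by 0.91, 0.85 and 0.89 on the log2 scale (edgeR, adjusted p between 0.0173 and 0.0294). In leaves, fewer cells of a type and less RNA per cell cannot be told apart, and the part of this list in the values of the 9 genes was not tested.

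Across the 12 libraries the level of CMT3 followed the summed level of this list closely. Pearson's r was 0.99 (permutation p = 1e-05, the smallest that 100000 resamples can give) and Spearman's rho was 0.97 (permutation p = 2e-05). It was 0.98 without the 2 libraries farthest from the median, N-r3 and P-r3, and 0.98 in the 10 libraries of the main fit. Within the 6 untriggered libraries r was 1.00 and within the 6 triggered ones 0.92 (0.63 without N+T-r3). For MET1 r was 0.94 (permutation p = 3e-05, rho 0.89), with 0.96 in untriggered and 0.49 in triggered libraries (0.16 without N+T-r3). VIM1 had r = 0.80 over the 12 libraries (permutation p = 0.00329, rho 0.66) but 0.50 in the 10. Its untriggered and triggered libraries form separate groups, with r of 0.97 and 0.69 within them. Without N+T-r3 the value within the triggered ones was 0.30. Of the 9 correlations computed, 6 passed adjustment over the 9 (CMT3, MET1, SUVH4, VIM1, DDM1 and SUVH5) and 4 did in the 10 libraries (CMT3, MET1, SUVH4 and SUVH5). Without N-r3 and P-r3, r fell to 0.79 for MET1, 0.73 for SUVH4, 0.55 for DDM1, 0.42 for VIM1 and 0.35 for SUVH5. DDM1 (r = 0.40) and VIM1 (r = 0.50) failed to pass in the 10 libraries, which lack N-r3 but hold P-r3. With P-r3 and P-r2 left out of these 10, r was 0.69 for DDM1 and -0.21 for VIM1. For SUVH5, r within the triggered libraries was -0.10 with N+T-r3 and 0.75 without it. CMT2, SUVH6 and VIM3 did not pass, with r of 0.70, 0.64 and 0.42 in the 12 and -0.35, -0.34 and 0.36 in the 10 libraries. Since the groups differ both in treatment and in the level of the list, these correlations also hold the differences between groups. The list was written with earlier results of these data known.

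**Figure D4:**
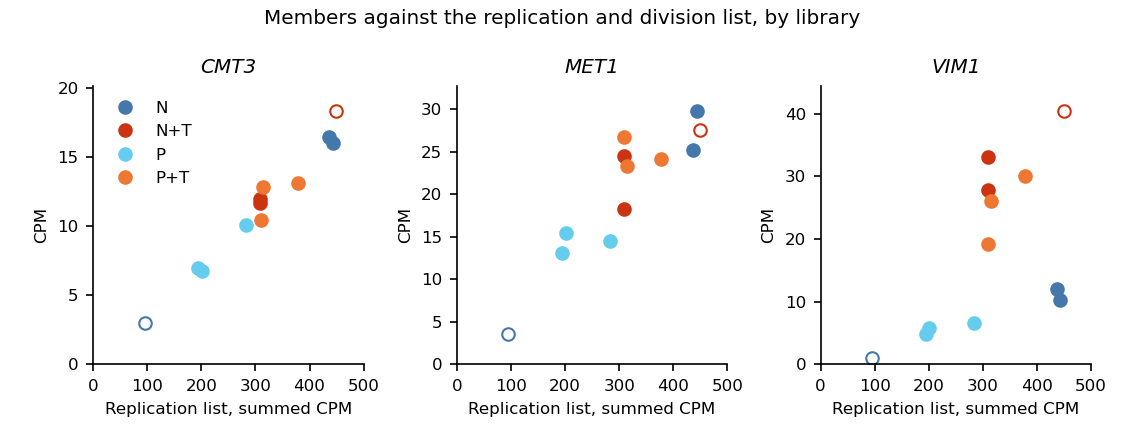
CPM of CMT3, MET1 and VIM1 against the summed CPM of 25 replication and division genes, 1 point a library, coloured by group (open circles are N-r3 and N+T-r3). CMT3 lies along 1 line through all groups (r = 0.99), whereas for VIM1 the triggered libraries lie above the untriggered ones. Levels of the list are mostly not shared, since triggered libraries of the main fit (308.7 to 378 CPM) lie between P and N-r1 and N-r2.

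Likeness was taken as Pearson's r of log2 (CPM + 1). Of all other loci tested, those most like CMT3 over the 12 libraries were POLA3 and PCNA1 (r = 0.99 each), both of which act in DNA replication, and they were also the most like it in the 10 libraries of the main fit. For VIM1 they were Cpn60beta2, a chloroplast chaperonin subunit (r = 0.99), and PLDALPHA2 (r = 0.98), whereas in the 10 libraries SPL7 came first and Cpn60beta2 next (r = 0.98 each). For MET1 they were MCM5 and ABCG41 (r = 0.97 each), whereas in the 10 libraries ICU2 came first (r = 0.95) and MCM5 next (r = 0.92). The pairs for the other genes were AT4G29750 and PREP1 for CMT2, AT3G06880 and AT1G65950 for DDM1, AT1G19290 and CDKC2 for SUVH4, IMPA-6 and MMH-1 for SUVH5, AT1G19485 and PRR7 for SUVH6, and AT2G19380 and AT3G13150 for VIM3, with r of 0.94 to 0.98. For these 6 genes the pair in the 10 libraries held other loci, so that it turned on N-r3 and N+T-r3. These are descriptions of the closest among 17986 loci.

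Other genes of the same families and complexes were read against the share of all loci called lower in N+T against N (7.43%). Of 14 paralogs of the 9 genes, 4 were tested, and 1, SUVH1, whose product binds methylated DNA, fell by 0.84 ± 0.17 in N+T against N (adjusted p = 0.0202, edgeR). AT4G08990, MEE57, SUVH7, SUVH8 and SUVH10 had 0 counts in all 12 libraries. Among 13 chromatin partners 3 were called lower in N+T against N, the chromatin assembly factor subunits FAS2 (-1.38 ± 0.37, adjusted p = 0.0404) and FAS1 (-0.89 ± 0.25, adjusted p = 0.0479) and the histone gene HTA6 (-0.60 ± 0.16, adjusted p = 0.0445). Among 13 genes of the methyl donor cycle, which supplies S-adenosylmethionine, MAT4 was called lower (-1.87 ± 0.48, adjusted p = 0.0376), and no gene of these 3 lists was called in the other 4 contrasts. Beside these, epidermal marker transcripts summed to 266 and 279 CPM in N-r1 and N-r2 and to 120.0 and 119.5 CPM in both N+T libraries of the main fit, with FDH called lower (-0.90 ± 0.21, adjusted p = 0.0304). They summed to 146 to 239 CPM in P and 153 to 222 CPM in P+T, and in the interaction both markers were above 0 at an unadjusted p below 0.05 (median 1.21) with 0 called. In N-r3 they summed to 53.6 CPM and in N+T-r3 to 226.9 CPM. Their part in the values of the 9 genes was not tested. No marker of mesophyll, guard cells or phloem was called in any contrast. ELIP1 and ELIP2, which respond to EL, summed to 1.68 to 2.06 CPM in N-r1 and N-r2, 8.33 to 11.7 CPM in both N+T libraries of the main fit, 3.09 to 26.1 CPM in P and 4.47 to 10.97 CPM in P+T, so that P-r3, with 26.1 CPM, lay above every triggered library.

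E2F transcription factors drive genes of DNA replication through a short motif, and the window from 250 bases before to 50 bases after each start was searched on both strands for its 4 forms, TTTCCCGC, TTTCGCGC, TTTGCCGC and TTTGGCGC. Only CMT3 held one, 23 bases into the gene. It was found in 1.85% of the windows of all loci tested and in 7 of 25 (28.0%) of those of the replication and division list. It is shown from the TAIR10.1 genome of RefSeq (chr1:26253648-26253675, minus strand) with the motif in capitals. A match is a description only.
CMT3: aacccatcacTTTGGCGCttatgtgacg

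The 9 genes were themselves methylated in CG over their bodies. In WT the weighted CG level, which is the share of methylated calls over the annotated span, was 11.6% ± 0.541 (SD, n = 3) for MET1, 25.7% ± 1.77 for CMT2, 8.11% ± 1.46 for CMT3, 16.0% ± 1.39 for DDM1 and 37.4% ± 2.11 for SUVH4. It was 46.6% ± 2.47 for SUVH5, 25.9% ± 1.96 for SUVH6, 13.1% ± 1.48 for VIM1 and 23.4% ± 2.37 for VIM3. The median of 30594 genes was 3.21% and the upper quartile 19.6%. At least 949 CG calls a plant lay behind each value, at a mean depth of 7.19 to 9.71 per CG cytosine. The first 600 bp of each gene were at no more than 1.39% CG in any 200 bp tile of pooled WT calls, and the methylated tiles lay further in. Mean CHG and CHH levels over the bodies were between 0.37% and 0.71% in both genotypes.

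Between strs2 and WT no body of the 9 genes was called in CG, where 8.9% of all genes were, nor in CHG (0.095%) or CHH (0.00614%). In CG, 2 of the 9 genes were at an unadjusted p below 0.05, by limma, and these 2 were also the ones whose plants did not overlap, as for 24.7% of all genes. VIM1 was at 14.3, 13.4 and 11.4% in WT and at 9.06, 8.84 and 9.38% in strs2, a difference of -3.96 percentage points (limma adjusted p = 0.0594, exact permutation p = 0.1, the smallest that 3 against 3 can give). With cytosines of depth 3 kept as well, VIM1 was called (limma adjusted p = 0.0333). CMT3 was at 8.79, 9.11 and 6.44% in WT and at 10.9, 10.3 and 11.4% in strs2 (limma adjusted p = 0.192, exact permutation p = 0.1). In CHG 1 of the 9 genes did not overlap, DDM1, as for 9.88% of all genes, and in CHH 1, CMT2, as for 9.66%, by differences of 0.18 and -0.05 percentage points. At the locus of STRS2 itself the longest stretch without a listed cytosine was 13 to 18 bp in WT and 45 to 96 bp in strs2. In the strs2 plants these stretches overlapped one another (chr5:2794392-2794487 at the widest), and in WT they lay elsewhere in the gene. Other loci were not compared, so this alone does not establish the genotype.

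The 9 bodies were also compared between the genotypes in tiles. In each gene the 200 bp tile with the largest pooled CG difference was taken, which chooses it for its difference, so no test is given. In VIM1 this was the tile 2600 to 2799 bp into the gene (chr1:21415316-21415515, minus strand, 127 of its bases in exons), at 81.8, 66.7 and 88.2% in the WT plants and 0% in all 3 strs2 plants, from 9 to 17 calls a plant. It holds 1 CG site, with a cytosine on each strand, which the capitals mark in the sequence from RefSeq TAIR10.1.
VIM1 body: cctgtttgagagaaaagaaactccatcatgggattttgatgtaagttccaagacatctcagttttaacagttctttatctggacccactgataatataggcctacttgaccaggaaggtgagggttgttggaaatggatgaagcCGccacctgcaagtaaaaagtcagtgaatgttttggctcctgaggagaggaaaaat
In SUVH4 the tile 3400 to 3599 bp into the gene, with 2 listed CG cytosines, was at 73.3, 81.3 and 84.0% in WT and 0% in all 3 strs2 plants, from 15 to 25 calls a plant. Other tiles went up. In CMT3 the tile at 3400 to 3599 bp was at 40.0, 26.3 and 29.0% in WT and 90.6, 68.2 and 75.9% in strs2, and in CMT2 the tile at 3800 to 3999 bp was at 0% in all WT plants and 53.3, 35.6 and 41.7% in strs2.

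Upstream of the start, the 9 genes differed. VIM1 and VIM3 were the only 2 of the 9 genes with a 200 bp tile in the upstream kb at over 20% CHG methylation in pooled WT (from at least 50 calls), and such tiles were also methylated in CG and CHH. The share of all genes with such a tile was not computed. In VIM1 it was the tile from 600 to 401 bp before the start (chr1:21418516-21418715, minus strand), at 85.4, 90.2 and 83.4% CG, 56.5, 50.0 and 56.5% CHG and 47.2, 18.8 and 27.1% CHH in the WT plants. In strs2 it was at 75.3, 80.0 and 93.8% CG, 52.2, 49.0 and 45.7% CHG and 12.5, 28.9 and 26.6% CHH. The tiles on either side were at no more than 1.06% CG and 4.17% CHG in pooled WT calls. In VIM3 tiles from 800 to 201 bp before the start were methylated, most in the one from 400 to 201 bp (chr5:15840879-15841078, minus strand), at 80.4, 92.5 and 82.0% CG, 73.5, 74.1 and 87.1% CHG and 25.8, 28.8 and 22.6% CHH in WT. There the strs2 plants were at 50.0, 81.1 and 75.4% CG, 8.33, 72.7 and 68.8% CHG and 1.04, 11.7 and 17.1% CHH. All 3 lay below all WT plants in CHG and CHH, though strs2-r2 had 72.7% CHG from 11 calls beside 73.5% in WT-r1. The lowest by far was strs2-r1. Since the tile was chosen for its level, no test is given. RefSeq TAIR10.1 annotates no gene within either upstream kb. Both tiles are shown as those highest in CHG among the tiles over this limit in each VIM gene. Capitals are C methylated above 50% in pooled WT, or G opposite such a C.
VIM1 upstream: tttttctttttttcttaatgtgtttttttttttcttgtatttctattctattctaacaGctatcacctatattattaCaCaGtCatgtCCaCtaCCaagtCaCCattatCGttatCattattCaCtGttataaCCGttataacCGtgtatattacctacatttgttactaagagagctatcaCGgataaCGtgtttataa
VIM3 upstream: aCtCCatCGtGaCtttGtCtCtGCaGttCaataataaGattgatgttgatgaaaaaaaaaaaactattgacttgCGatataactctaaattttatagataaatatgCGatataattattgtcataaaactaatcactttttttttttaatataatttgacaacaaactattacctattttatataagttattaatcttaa
In the VIM1 tile 28 of 47 listed cytosines were above 50%, spread over its middle and end, and in the VIM3 tile 19 of 44 were, most of them in its first 40 bases. Over the whole upstream kb, VIM3 was at 32.5% ± 4.08 (SD, n = 3) CHG in WT, a level that 1159 of 31896 genes reached. VIM1 was at 10.3% ± 3.31, a level that 3543 of these genes reached. SUVH5 and MET1 had CG methylation upstream, at 78.5% and 80.9% in the tile from 600 to 401 bp, with CHG at 2.82% and 4.76%. CMT2 had 39.4% and 43.9% CG in the tiles that begin 1000 and 800 bp before its start, with CHG at no more than 0.47%. MET1 also had 38.5% CHG in the farthest tile of its upstream kb, but from 13 calls, under the minimum. That tile was at 62.1% CG (29 calls) and 19.2% CHH (120 calls) in pooled WT. Over the kb, CHH was at 3.65% in MET1 and 5.10% in VIM1 in WT, and at 5.74% and 3.12% in strs2. CMT3, DDM1, SUVH4 and SUVH6 were at no more than 0.82% CG over the kb. No upstream kb of the 9 genes was called between the genotypes in any context (limma, 0 of 9). Few of all genes were either. In CG 938 were called higher and 922 lower in strs2 of 32041 genes. In CHG 79 were higher and 49 lower of 31896, and in CHH 20 and 17 of 32744.

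**Figure D5:**
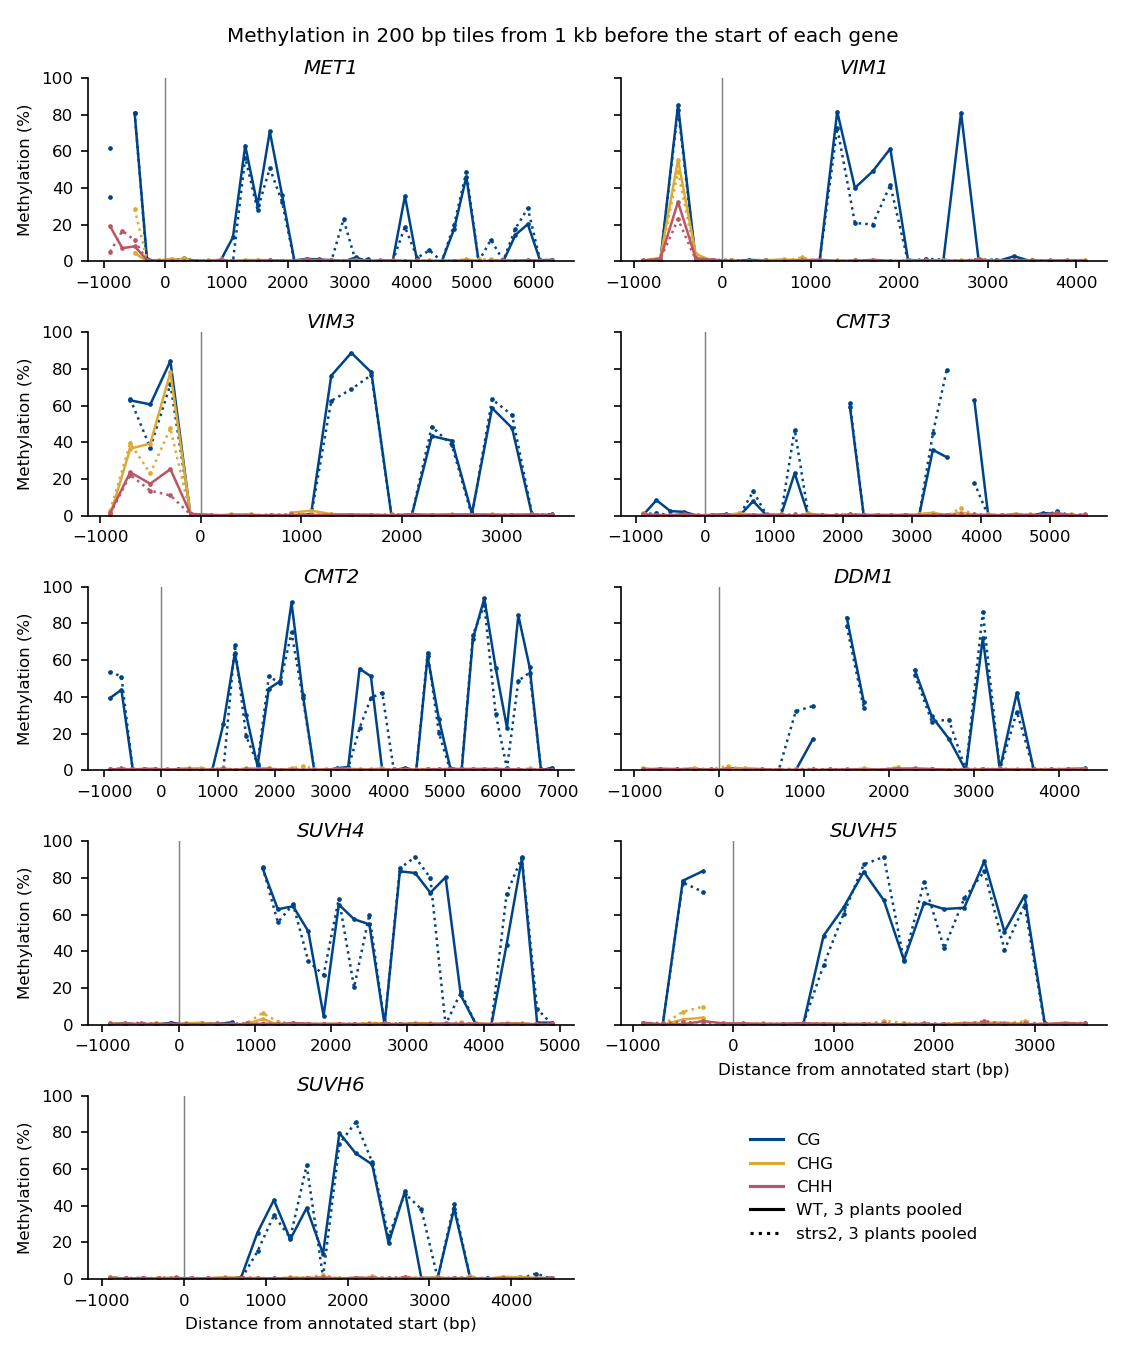
Methylation in 200 bp tiles along the 9 genes against the distance from the annotated start, by context (colour) and genotype (solid for WT, dotted for strs2, each 3 plants pooled; tiles with under 20 calls are left out). Bodies carry CG methylation past the first 600 bp, and CHG and CHH methylation stands out upstream of VIM1 and VIM3. Upstream of MET1, CHH methylation reaches 19.2% in WT.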

How the data were processed

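In the mRNA-seq arm, trimmed reads were mapped by the authors with Subread onto the TAIR10 genome, and uniquely placed reads were assigned by strand to Araport11 loci with featureCounts. The deposited values are raw counts over the whole span of each locus, introns included. The authors made the MethylC-seq files with Bismark and Bowtie2, and the deposited files hold methylated and total call counts for each cytosine beside the methylated percent, which was not used. After removal of rRNA and organellar loci, a locus was tested if its CPM exceeded 1 in at least 3 of the 12 libraries. TMM scaling was followed by edgeR 4.0.16 (R 4.3.3, quasi-likelihood F test, legacy form, 1 mean per group) over the 10 libraries that the study used, with Benjamini-Hochberg adjustment over the 17986 loci. CPM in the text is not TMM scaled. The fits were checked on simulated counts. Cytosines of depth above 3 were summed over each gene, and genes with at least 50 calls in every plant were tested with limma 3.58.1 on log2 odds, with 1 call added to each side. Alternatives were all 12 libraries, 11 libraries with either omitted library kept (chosen after seeing the data), DESeq2 1.42.0, its size factors, other filters, the newer form of the edgeR test, a replicate block, leaving out each sample, other depth minimums and the upstream kb. p-values reflect the spread between independent plants. Genes other than the 9 were named if called (up to the 3 smallest p of each list and contrast) or if among the 2 most correlated loci. Python 3.11.15 was used for the sums and permutation tests. The members and all lists were chosen with earlier results of these data known.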

Additional observations from a re-analysis of the deposited data

Results flagged for a closer look

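For CMT3 and SUVH5 the triggered libraries lay on opposite sides of the untriggered ones in naïve and primed plants, although of the 4 changes only that of CMT3 in primed plants was called. On the TMM scale N+T-r1 and N+T-r2 lay below N-r1 and N-r2, and all P+T libraries lay above all P libraries. The log2 interaction was 0.93 for CMT3 (adjusted p = 0.194, edgeR) and 1.32 for SUVH5 (adjusted p = 0.214), so the difference itself did not pass the test. N+T-r3, which the main fit leaves out, was at 18.3 CPM for CMT3, above N-r1 and N-r2, and at 1.09 CPM for SUVH5, below them.

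VIM1 was at 40.4 CPM in N+T-r3, a library outside the main fit, above the 12.0 and 10.3 CPM of N-r1 and N-r2 and above every other library.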

How the results depend on the processing

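Of 45 log2 fold changes of single genes 6 were called, and under the alternatives these calls were kept in 64 of 114 fits and lost in 50, with no reversal, and in 741 fits of the other changes 5 gained a call. In N+T against N the count of loci called was 717 with all 12 libraries, 953 with N+T-r3 kept, 1096 with N-r3 kept and 4509 by DESeq2, beside 2728, and the 2 genes called became 0 with all 12 libraries and 0 with N-r3 kept. In P+T against P these settings gave 155, 505, 161 and 2158 loci, beside 806, and 0, 1, 0 and 4 of the 9 genes, and no filter on low counts gave 2 genes. DESeq2 called 342 loci and 3 of the 9 genes in P against N, 750 loci in P+T against N+T, and 753 loci and 1 gene in the interaction. There the main count of 1 locus became 0 with all 12 libraries, with 11 libraries of either kind and with no filter. Leaving out 1 library gave 1 to 4166 loci and 0 to 2 genes in N+T against N, and 77 to 2242 loci and 1 to 4 genes in P+T against P. It gave 0 to 637 loci and 0 to 1 gene in P against N, 0 to 226 loci in P+T against N+T and 0 to 242 loci in the interaction. Same-numbered libraries had correlated deviations of -0.33 to 0.41 (median 0.22, and -0.13 for other pairs), so not every pair was above 0.1 and the numbers were not taken to pair the plants, which the labels do not state. With the replicate block, 525 loci and 1 gene (VIM1) were called in P+T against P, where MET1, CMT3 and SUVH4 were at adjusted p = 0.0798, 0.0604 and 0.0679, and 0 loci in the interaction. Keeping cytosines of depth 3 gave 1 of the 9 bodies called in CG between strs2 and WT (VIM1), in place of 0. The causes were not tested. Depth limits VIM3 and SUVH5 most, whose counts are the smallest.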

Other observations

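The paralog VIM2 was at 6.02 CPM in N+T-r1 and had 0 counts in N+T-r3 of the same group. In the interaction 11 of 13 chromatin partners and 11 of 13 genes of the methyl donor cycle were fitted above 0 with 0 called by edgeR, at medians of 0.16 and 0.43 beside -0.01 over all loci.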
